A study of Mus musculus with 2 samples.

Results

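Il1b Ptgs2 inflammatory monocytes were 134 of 18112 kept cells in a single-cell RNA data set of white blood cells from B16-F10 tumours, which are grown from a mouse melanoma cell line. They were chosen by counts of unique molecular identifiers (UMIs), each of which stands for 1 captured RNA molecule. Barcodes were kept where 200 or more genes were detected and mitochondrial genes made up less than 10% of the UMIs. A chosen cell had at least 2 UMIs of Csf1r, the receptor for macrophage colony-stimulating factor, at least 5 of Il1b and at least 1 of Ptgs2. It had at most 2 UMIs of the T cell genes Cd3e, Cd3d, Cd3g and Trac together and under 3 of the division genes Mki67 and Top2a. It had at most 1 UMI of the tissue macrophage genes Cd163 and Cd209f, under 10 of Retnla and under 10 of Spp1 and Arg1 together. It also had under 30 UMIs of the complement genes C1qa, C1qb and C1qc, which mark mature macrophages. Cells that passed every gate but those on Il1b and Ptgs2 are called the other monocytes here, and the phagocyte gate means the Csf1r and T cell gates alone.

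The first library came from tumours of FDPS-knockout (KO) B16-F10 cells, in which the gene for farnesyl diphosphate synthase of the mevalonate pathway is knocked out. The second came from WT B16-F10 tumours, which the design text calls control. Both groups were sampled 14 days after injection, with 3 tumours each, and viable CD45+ cells were sorted after collagenase digestion at body temperature. The knockout is in the melanoma cells and not in the sorted cells, which belong to the host, and the labels used here give neither the strain nor the age of the mice. Each group gave 1 library, and no label ties cells to tumours. The values below therefore compare 2 libraries and not 2 conditions, with no test and no spread between replicates. Intervals are at 95%, exact Poisson for summed UMIs, exact Clopper-Pearson for shares and approximate for ratios of shares, and cover counting error only. Those of log2 ratios combine the outer Poisson bounds of both sums.

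IL-1β, the product of Il1b, is made as an inactive precursor that caspase-1 cleaves inside inflammasomes such as the one built on NLRP3. It acts through the IL-1 receptor on neighbouring cells and drives NF-κB signalling, chemokine production and recruitment of neutrophils. Ptgs2 encodes cyclooxygenase 2, the inducible enzyme that starts prostaglandin synthesis, and both transcripts are short-lived and induced within the first hours of stimulation. In tumours such cells are recruited from blood. The immediate early genes (Fos, Jun, Egr and their kin) and heat shock genes are also induced by warm enzymatic digestion of tissue, so they are given in full here.

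The promoters of 4 genes are shown because their transcripts carry the results: the genes of the gate, Il1b and Ptgs2, the immediate early gene Fos and the heat shock gene Hspa1b. Each window runs from 250 bases before to 50 after the start of the gene, 5′ to 3′ on its own strand, from RefSeq on GRCm38.p6. Il1b lies on the minus strand at chr2:129371090-129371389, Ptgs2 on the plus strand at chr1:150099781-150100080, Fos on the plus strand at chr12:85473640-85473939 and Hspa1b on the minus strand at chr17:34959189-34959488. Capitals mark matches, on either strand, to 7 short motifs.
Il1b: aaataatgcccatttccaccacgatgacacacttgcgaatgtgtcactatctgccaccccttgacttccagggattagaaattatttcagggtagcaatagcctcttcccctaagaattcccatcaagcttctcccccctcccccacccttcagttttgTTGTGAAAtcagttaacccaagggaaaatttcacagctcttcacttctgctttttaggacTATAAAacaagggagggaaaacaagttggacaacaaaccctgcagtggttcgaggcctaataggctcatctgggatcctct
Ptgs2: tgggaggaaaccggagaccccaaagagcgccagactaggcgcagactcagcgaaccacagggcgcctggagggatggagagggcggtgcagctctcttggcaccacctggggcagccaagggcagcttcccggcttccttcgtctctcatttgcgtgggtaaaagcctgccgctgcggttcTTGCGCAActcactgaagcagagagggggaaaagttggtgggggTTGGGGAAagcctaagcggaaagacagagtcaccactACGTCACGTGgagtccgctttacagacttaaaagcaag
Fos: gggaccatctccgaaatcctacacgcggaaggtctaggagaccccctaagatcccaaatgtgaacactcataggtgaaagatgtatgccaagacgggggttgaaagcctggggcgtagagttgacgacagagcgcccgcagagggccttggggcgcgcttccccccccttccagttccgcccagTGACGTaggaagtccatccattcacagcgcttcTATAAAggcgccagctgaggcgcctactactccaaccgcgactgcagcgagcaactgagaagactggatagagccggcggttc
Hspa1b: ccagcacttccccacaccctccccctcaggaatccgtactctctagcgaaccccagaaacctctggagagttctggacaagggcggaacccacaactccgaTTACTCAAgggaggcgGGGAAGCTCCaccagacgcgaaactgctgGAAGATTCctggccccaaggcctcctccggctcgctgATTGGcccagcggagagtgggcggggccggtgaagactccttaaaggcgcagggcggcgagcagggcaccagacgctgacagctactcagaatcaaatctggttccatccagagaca

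The motifs searched were the TATA box (TATAAA), the core of the cAMP response element (TGACGT), the E-box (CACGTG), a C/EBP motif (TTNNGNAA), an NF-κB motif (GGGA, any 4 bases, then CC), a heat shock element (GAANNTTC) and the CCAAT box (CCAAT). Among 32851 promoter windows of the same length, these were present in 13.6%, 7.51%, 7.15%, 40.7%, 20.7%, 7.86% and 37.4% in that order. The Il1b window held a TATA box 31 bases before the start and a C/EBP match 91 bases before it. The Ptgs2 window held C/EBP matches 69 and 25 bases before the start, the first on both strands. It also held a cAMP response element core at base 13 after the start that overlaps an E-box at base 17. The Fos window held a TATA box 33 bases and a cAMP response element core 66 bases before the start. Only Hspa1b held the NF-κB and heat shock letters, 133 and 104 bases before its start, beside a C/EBP match at 149 and a CCAAT box at 67. Base composition differed too: G and C made up 45.7% of the Il1b window, 59.3% of the Ptgs2 window, 58.7% of the Fos window and 61% of the Hspa1b window. A match of this kind is a run of letters and not a measured binding site.

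In the KO library 39 of 8697 kept cells were Il1b Ptgs2 monocytes (0.448%, interval 0.319 to 0.613), against 95 of 9415 in the WT library (1.01%, 0.817 to 1.23). The KO share was 0.444 times the WT share (0.306 to 0.644). That order depended on the denominator. Within the phagocyte gate they were 3.76% of 1037 KO cells (2.69 to 5.11) and 2.77% of 3430 WT cells (2.25 to 3.38), a ratio of 1.36 (0.941 to 1.96) whose interval includes 1. The other monocytes were also the smaller share of the KO library, with 369 cells (4.24%) against 811 (8.61%) in WT. Chosen cells were somewhat deeper than the other monocytes, with a median of 14501 UMIs in KO and 12623 in WT, against 11088 and 10326 in the other monocytes of KO and WT. No chosen cell carried a barcode that both libraries shared, while 19 such barcodes were among all kept cells.

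Markers of classical monocytes were present in the members, though not in every cell. All 14 classical monocyte markers were detected in both libraries, and their summed level was 7174 CPM in KO members and 8876 CPM in WT members, where CPM is the share of all UMIs of the group on the usual scale. The other monocytes had 6401 CPM in KO and 9209 CPM in WT. Cells set apart by Spp1 and Arg1 had 6998 CPM in KO and 5453 CPM in WT. Those set apart by C1qa, C1qb and C1qc had 3194 CPM in KO and 2467 CPM in WT. The list thus does not tell the KO members from the Spp1 and Arg1 cells. Ccr2, the receptor that draws monocytes out of the marrow, had 625 CPM in KO and 558 CPM in WT members. Ly6c2, which marks classical monocytes, reached at least 3 UMIs in 21 of 39 KO cells (53.8%) and 51 of 95 WT cells (53.7%), but had no UMI in 12 KO and 28 WT cells. A small group looked different. At least 10 UMIs of S100a8 and S100a9, abundant in neutrophils and also made by monocytes, were found in 6 KO cells (15.4%) and 4 WT cells (4.21%). Those 6 KO cells had a median of 4330 UMIs and 14152 CPM of Il1b, and the 4 WT cells had 11682 UMIs and 10823 CPM. The summed neutrophil markers stood at 2575 CPM in KO members and 1646 CPM in WT members, against 184 CPM in KO and 175 CPM in WT other monocytes. Of the listed neutrophil markers, the granule genes Ltf and Camp were at 0 in members of both libraries, and Ly6g was at 0 in KO members. Other neutrophil genes were present in these cells: Csf3r, the receptor for granulocyte colony-stimulating factor, had 1732 CPM in the 6 KO and 1277 CPM in the 4 WT cells, and the chemokine receptor Cxcr2 had 676 CPM in KO and 688 CPM in WT. Retnlg had 758 CPM in the KO and 373 CPM in the WT cells, and G0s2 had 1840 CPM in KO and 7366 CPM in WT. These 10 are called the S100 cells, and a second value without them is given beside results that they moved.

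Markers of lymphocytes and mast cells were low, while those of macrophages were near the other monocytes and below the macrophage classes. The 14 macrophage markers summed to 2216 CPM in KO and 2444 CPM in WT members, against 2642 CPM in KO and 2880 CPM in WT other monocytes. The class set apart by C1qa, C1qb and C1qc had 13704 CPM in KO and 16122 CPM in WT. Cells set apart by Spp1 and Arg1 had 7251 CPM in KO and 13876 CPM in WT. The list includes C1qa, C1qb and C1qc, which the gate holds down in members. Plasmacytoid dendritic cell markers summed to 542 CPM in KO and 683 CPM in WT members, against 504 and 706 CPM in KO and WT other monocytes, with Cox6a2 at 0 in KO members and Siglech, Ccr9 and Klk1 at 0 in WT members. That list includes Bst2, which is also an interferon gene. Flt3 and Zbtb46, dendritic cell genes, reached at least 3 UMIs in 3 cells of each library, and Ccr7 and Fscn1, genes of mature dendritic cells, did so in 0 KO and 3 WT cells. T cell markers summed to 39.2 CPM in KO members and 45.3 CPM in WT members, NK cell markers to 8.52 and 29 CPM in KO and WT members, and mast cell markers to 0 in both. Melanoma markers such as Dct were lower in KO, with 11.9 CPM in KO and 159 CPM in WT members, and 24.4 CPM in KO and 536 CPM in WT other monocytes. The part that this difference in tumour RNA plays in other results was not tested.

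**Figure D1:**
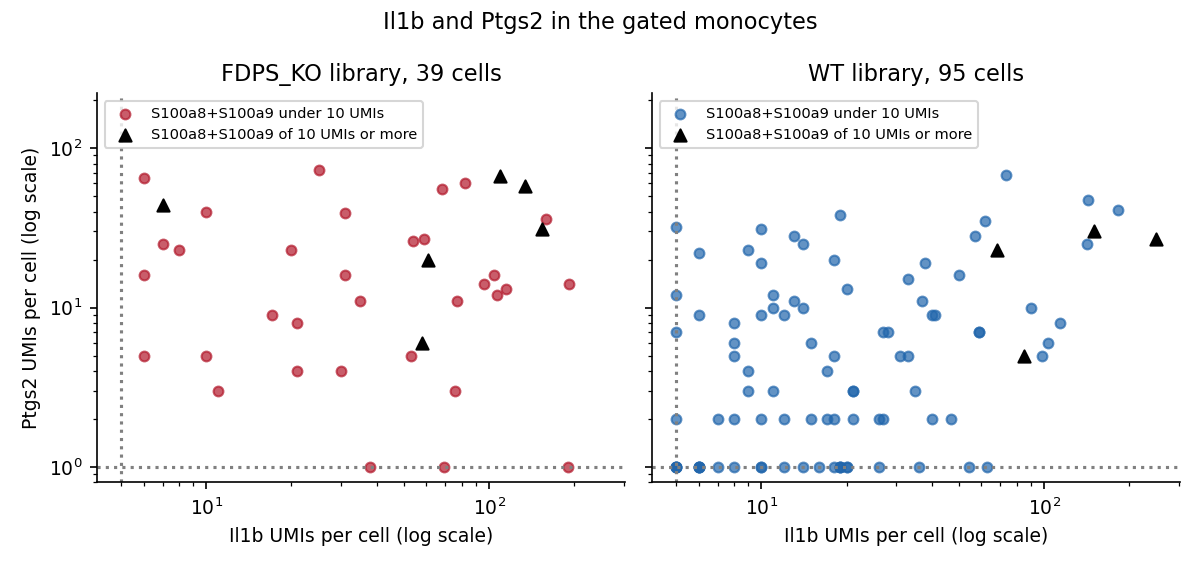
Each point is 1 cell of the KO (left) or WT (right) library, with Il1b UMIs on the x axis and Ptgs2 UMIs on the y axis, both logarithmic, and dotted lines at the gates of 5 and 1 UMIs. Black triangles, with at least 10 UMIs of S100a8 and S100a9, are 6 KO and 4 WT members.

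The gate spans a wide range of Il1b. A KO member held 6 UMIs of Il1b at the lowest, 53 at the median and 192 at the highest, and a WT member held 5, 18 and 248. At least 100 Il1b UMIs were present in 9 KO and 7 WT cells, and fewer than 10 in 6 KO and 24 WT cells. The KO cells thus sat higher in the gate, while the ranges of both libraries overlap over nearly their whole length. Ptgs2 ran from 1 through a median of 16 to 73 UMIs in KO members and from 1 through 5 to 68 in WT members, and 3 KO and 25 WT cells passed on 1 UMI. Csf1r was close to its gate in most cells, with a median of 3 UMIs in KO and 4 in WT.

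Summed over cells, Il1b stood at 4017 CPM in KO members (3856 to 4183) and 2339 CPM in WT members (2258 to 2422), while the other monocytes had 222 CPM in KO and 388 CPM in WT. Ptgs2 stood at 1517 CPM in KO members (1419 to 1620) and 682 CPM in WT members (639 to 728), and at 81.5 and 64.1 CPM in the other monocytes of KO and WT. These genes chose the cells, so the gap to the other monocytes is no finding. Csf1r, which all monocytes here had to carry, was at 322 CPM in KO and 342 CPM in WT members, against 371 CPM in KO and 378 CPM in WT other monocytes. The edge of the gate is not sharp. Just inside it, 3 KO and 14 WT members had 5 or 6 Il1b UMIs, and just outside 4 KO and 14 WT cells had Ptgs2 with 3 or 4. A further 47 KO and 177 WT cells had at least 5 Il1b UMIs with no Ptgs2. Cells that met every gate but had 1 UMI of Csf1r numbered 25 in KO and 37 in WT, and their S100a8 stood at 7003 CPM in KO and 4744 CPM in WT, above the 627 CPM of KO and 276 CPM of WT members.

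Il1b was not particular to these cells. Cells of the neutrophil gate, rich in S100a8 and S100a9 with fewer than 2 UMIs of Csf1r, held 23084 CPM in KO and 10660 CPM in WT, above the members in both libraries. Cells of the Spp1 and Arg1 class held 2920 CPM in KO and 273 CPM in WT, though that class had only 9 cells in KO against 870 in WT. T cells, with at least 3 UMIs of the T cell genes and none of Csf1r, read 14.1 CPM in KO and 7.40 CPM in WT. With every cell thinned to 5000 UMIs, 3.19% of KO and 2.37% of WT T cells held an Il1b UMI, the share taken here as background, and 8.8% of KO and 7.68% of WT T cells did so unthinned.

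**Figure D2:**
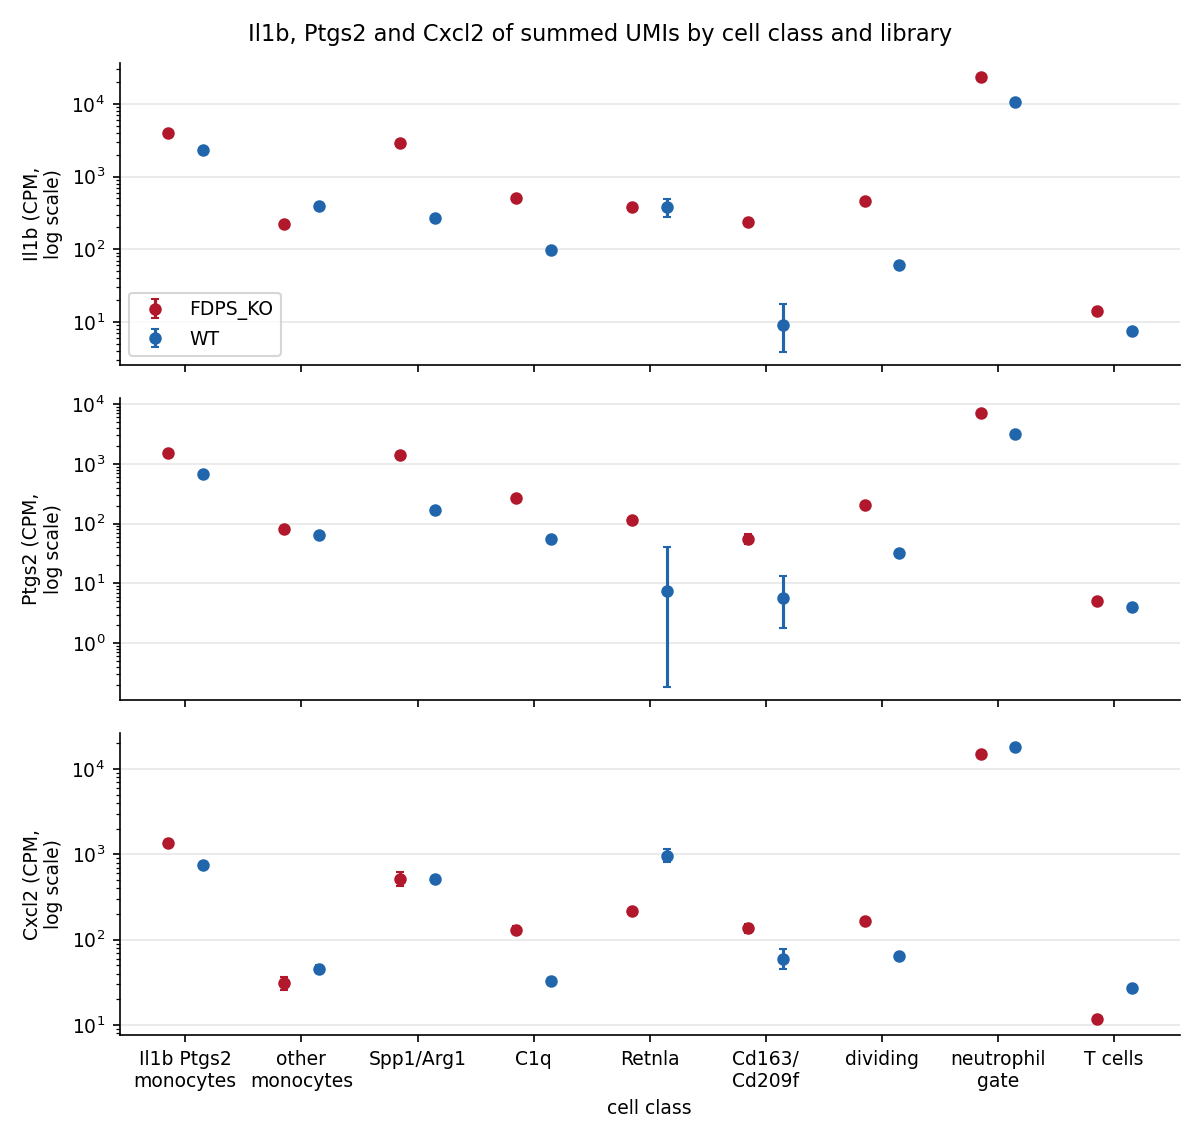
CPM of Il1b, Ptgs2 and Cxcl2 (y axis, logarithmic) in 9 classes of cells (x axis), KO left in red and WT right in blue, with Poisson 95% intervals. Il1b is highest in the neutrophil gate of both libraries (23084 CPM in KO, 10660 CPM in WT) and lowest in T cells (14.1 and 7.40 CPM in KO and WT).

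Levels of all genes were next set against the other monocytes of the same library, as the log2 ratio of CPM + 5. A gene was measured at a mean of at least 10 CPM and counted as higher or lower past 2-fold. In KO, 374 of 7931 measured genes were higher in members (4.72%) and 733 lower (9.24%), and in WT 120 of 7823 were higher (1.53%) and 112 lower (1.43%). The gate chose the members on the same cells, so these shares are a description and nothing is read from them. They are the shares of all genes to set beside each list count of members over other monocytes below. The split also depends on scale: with libraries matched on the median ratio of genes, it was 518 higher and 399 lower in KO and 157 higher and 82 lower in WT. That rescaling moved the median of all genes, at -0.24 in KO and -0.12 in WT, to -0.03 and 0.00.

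Genes of IL-1 itself were mixed. Of 13 measured genes of the IL-1 and inflammasome list, 6 were higher and 0 lower in KO members (median log2 ratio 0.15), and 4 were higher and 0 lower in WT members (0.00). Without the S100 cells, 5 were higher and 1 lower in KO (0.05). Il1r2, the decoy receptor that binds IL-1 without signalling, stood at 278 CPM in KO members against 19.8 CPM in KO other monocytes, and at 289 against 37.7 CPM in WT, log2 ratios of 3.51 and 2.78. Without the S100 cells it was still at 151 CPM in KO and 184 CPM in WT members. Nlrp3, the inflammasome sensor, stood at 244 CPM in KO members against 51.5 CPM, and at 183 against 58.1 CPM in WT, ratios of 2.14 and 1.57. Il1rn, the secreted receptor antagonist, stood at 205 CPM in KO members against 46.2 CPM and at 436 against 193 CPM in WT, ratios of 2.03 and 1.15. Decoy and antagonist were thus both above the other monocytes beside the cytokine. The adaptor and protease of the inflammasome were within 2-fold of the other monocytes: Casp1, the protease that cleaves the precursor, had 54.5 CPM in KO members against 75.2 CPM (-0.43) and 63.9 against 95.6 CPM in WT (-0.55). Pycard, the adaptor that joins it to the sensor, had 157 CPM in KO members against 158 CPM (-0.01) and 234 against 310 CPM in WT (-0.40). Il1a, the other IL-1 agonist, was at 32.4 CPM in KO and 34.2 CPM in WT members, and 1 KO cell held 78.9% of its KO UMIs.

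Around Ptgs2 the rest of the prostaglandin pathway was mostly level with the other monocytes. Of 10 measured genes, 1 was higher and 2 lower in KO members (median -0.06), and 1 was higher and 1 lower in WT members (-0.10). Pla2g4a, the phospholipase that frees arachidonic acid, had 240 CPM in KO members against 135 CPM, and 252 against 185 CPM in WT, both within 2-fold. Ptges, the inducible prostaglandin E synthase, had 17 CPM in KO members against 9.54 CPM and 37.1 against 6.44 CPM in WT, ratios of 0.60 and 1.88, with 60% of KO and 52% of WT UMIs from 1 cell each. Hpgd, which breaks prostaglandins down, was the lowest of the list, with 15.3 CPM in KO members against 92.1 CPM (-2.26) and 5.2 against 24.0 CPM in WT (-1.51). Ptger4, a receptor for prostaglandin E2, had 83.5 CPM in KO members against 38.2 CPM (1.04) and 29.7 against 30.5 CPM in WT (-0.03).

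The neutrophil attractants Cxcl2 and Cxcl3 stood well above the other monocytes. Cxcl1 had 13 UMIs in 2 KO members and none in WT members, against 8 UMIs in WT other monocytes. Of the measured cytokine and chemokine genes, 12 of 18 were higher and 0 lower in KO members (median 1.84). In WT members 8 of 16 were higher and 0 lower (1.05). Of all genes 4.72% were higher in KO and 1.53% in WT. The list summed to 8634 CPM in KO and 8660 CPM in WT members. Spp1 and Arg1 cells had 6310 CPM in KO and 11019 CPM in WT. Cxcl2 stood at 1365 CPM in KO members (1272 to 1463) against 30.9 CPM, and at 757 CPM in WT members (711 to 804) against 45.4 CPM, log2 ratios of 5.26 and 3.92. It came from a minority of cells: 17 of 39 KO and 32 of 95 WT members had any Cxcl2 UMI. At 5000 UMIs a cell, the share with a Cxcl2 UMI was 31.4% in KO and 25.6% in WT members, 5.38% and 9.46% in the other monocytes of KO and WT, and 2.32% and 3.36% in KO and WT T cells. Thinning left out 4 KO and 5 WT members. Unthinned, the share was 43.6% in KO and 33.7% in WT members, and 5.92% in KO and 10.9% in WT T cells at medians of 11607 and 18349 UMIs. Without the S100 cells Cxcl2 had 740 CPM in KO and 411 CPM in WT members, ratios of 4.38 and 3.05. Cells of the neutrophil gate had 14984 CPM of Cxcl2 in KO and 17952 CPM in WT. Spp1 and Arg1 cells had 516 CPM in KO and 509 CPM in WT. Cxcl3, another ligand of CXCR2, had 47.7 CPM in KO members against 0.222 CPM and 104 against 4.18 CPM in WT, ratios of 3.34 and 3.57. A single cell held 67.9% of its KO UMIs and another 53.6% of its WT UMIs, so its level rests on few cells.

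Several broader inflammatory cytokines were also above the other monocytes. Osm, a cytokine of the IL-6 family, had 118 CPM in KO members against 10.7 CPM and 125 against 16.1 CPM in WT, ratios of 2.97 and 2.63. Tnf had 237 CPM in KO members against 78.6 CPM and 320 against 82.8 CPM in WT, ratios of 1.53 and 1.89. Ccl3, an inflammatory chemokine, had 280 CPM in KO members against 60.4 CPM and 385 against 72.3 CPM in WT, ratios of 2.12 and 2.34. Ccl5, an attractant of T cells and monocytes, had 240 CPM in KO members against 182 CPM (0.39) and 677 against 199 CPM in WT (1.74), with 53.2% of its KO UMIs in 1 cell. Ccrl2, an atypical receptor that binds chemerin without signalling, had 533 CPM in KO members against 59.3 CPM and 446 against 59.4 CPM in WT, ratios of 3.07 and 2.81. Of these, Osm, Tnf, Ccl3 and Ccrl2 were past 2-fold in both libraries. Ligands of CXCR3 that recruit T cells were not. Cxcl9 had 2013 CPM in KO members against 376 CPM in KO other monocytes (2.41), but 560 against 576 CPM in WT (-0.04). Cxcl10 had 2376 CPM in KO members against 557 CPM (2.08) and 1541 against 985 CPM in WT (0.64). Ccl2, the main attractant of monocytes, differed little from the other monocytes of the same library, with ratios of 0.36 in KO and 0.31 in WT.

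Genes of vessel growth and matrix followed in part. Of the measured ones, 6 of 11 were higher and 1 lower in KO members (median 1.90), and 2 of 10 higher and 0 lower in WT members (0.69). The KO median was -0.118 with cells thinned to 5000 UMIs, which left 12 KO members. The list summed to 2345 CPM in KO and 2668 CPM in WT members. Spp1 and Arg1 cells had 4008 CPM in KO and 2479 CPM in WT. Thbs1, which encodes the matrix protein thrombospondin 1, had 733 CPM in KO members against 58.8 CPM and 643 against 178 CPM in WT, ratios of 3.53 and 1.83. Vegfa, the main growth factor of blood vessels, had 361 CPM in KO members against 32.8 CPM and 137 against 57.4 CPM in WT, ratios of 3.27 and 1.19. Areg, a ligand of the EGF receptor, had 20.5 CPM in KO members, all from 1 cell, and 16.3 CPM in WT members. Hypoxia and glycolysis genes stood in the same direction. Of 19 measured, 14 were higher and 0 lower in KO members (1.30), and 3 were higher and 0 lower in WT members (0.66). They summed to 6761 CPM in KO and 11575 CPM in WT members. Spp1 and Arg1 cells were higher, at 12549 CPM in KO (9 cells) and 14825 CPM in WT (870 cells).

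The NF-κB list holds subunits, targets and feedback inhibitors of the pathway. Of 22 measured genes, 14 were higher and 0 lower in KO members (median 1.38), and 8 were higher and 0 lower in WT members (0.71). Of all genes 4.72% were higher in KO and 1.53% in WT. The list summed to 8922 CPM in KO and 6214 CPM in WT members. Spp1 and Arg1 cells had 9108 CPM in KO and 3335 CPM in WT. Nfkbia, which encodes the inhibitor IκBα, had 1461 CPM in KO members against 287 CPM and 1097 against 307 CPM in WT, ratios of 2.33 and 1.82. Tnfaip3, which encodes the deubiquitinase A20, had 460 CPM in KO members against 96.3 CPM and 218 against 67.8 CPM in WT, ratios of 2.20 and 1.62. Nfkbiz, a nuclear cofactor of NF-κB, had 1210 CPM in KO members against 289 CPM and 483 against 185 CPM in WT, ratios of 2.05 and 1.36. Acod1, which makes itaconate, had 622 CPM in KO members against 49.5 CPM and 629 against 186 CPM in WT, ratios of 3.52 and 1.73. Without the S100 cells Acod1 had 327 CPM in KO and 414 CPM in WT members, ratios of 2.61 and 1.13. The list's counts without them were 16 higher and 0 lower in KO and 8 higher and 0 lower in WT.

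Receptors for microbial and damage signals showed a similar pattern. Of the measured ones, 6 of 14 were higher and 1 lower in KO members (0.81), and 6 of 15 higher and 0 lower in WT members (0.57). In KO 5 of 12 were higher and 1 lower without the S100 cells (0.38). The list summed to 2091 CPM in KO and 2370 CPM in WT members. Spp1 and Arg1 cells had 2874 CPM in KO and 1573 CPM in WT. Cd14, the lipopolysaccharide co-receptor, had 588 CPM in KO members against 52.2 CPM and 415 against 106 CPM in WT, ratios of 3.38 and 1.92. Clec4e, the Mincle receptor, had 632 CPM in KO members against 78.1 CPM and 662 against 196 CPM in WT, ratios of 2.94 and 1.73. Tlr2, the receptor for bacterial lipopeptides, had 194 CPM in KO members against 47.9 CPM (1.91) and 78.7 against 51.3 CPM in WT (0.57), while Tlr4, the lipopolysaccharide receptor, was within 2-fold in both (-0.32 and 0.40). Trem1 rested on the S100 cells in KO: it had 32.4 CPM in all KO members and 3.64 CPM without them.

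For interferon genes the counts were unlike in the libraries, a difference that was not tested. Of 25 measured type I interferon genes, 9 were higher and 0 lower in KO members (median 0.53; 6 and 0 without the S100 cells), and 0 were higher and 0 lower in WT members (0.03). Rsad2, which encodes the antiviral protein viperin, had 1031 CPM in KO members against 152 CPM (2.72) and 663 against 343 CPM in WT (0.94). The KO ratio is thus set against a lower level in the other monocytes than the WT ratio is. Of 18 measured interferon gamma and MHC class II genes, 3 were higher and 0 lower in KO members (0.66; 2 and 0 without the S100 cells), and 0 were higher and 1 lower in WT members (0.01). Cd274, which encodes PD-L1, had 644 CPM in KO members against 161 CPM (1.97) and 737 against 437 CPM in WT (0.75).

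**Figure D3:**
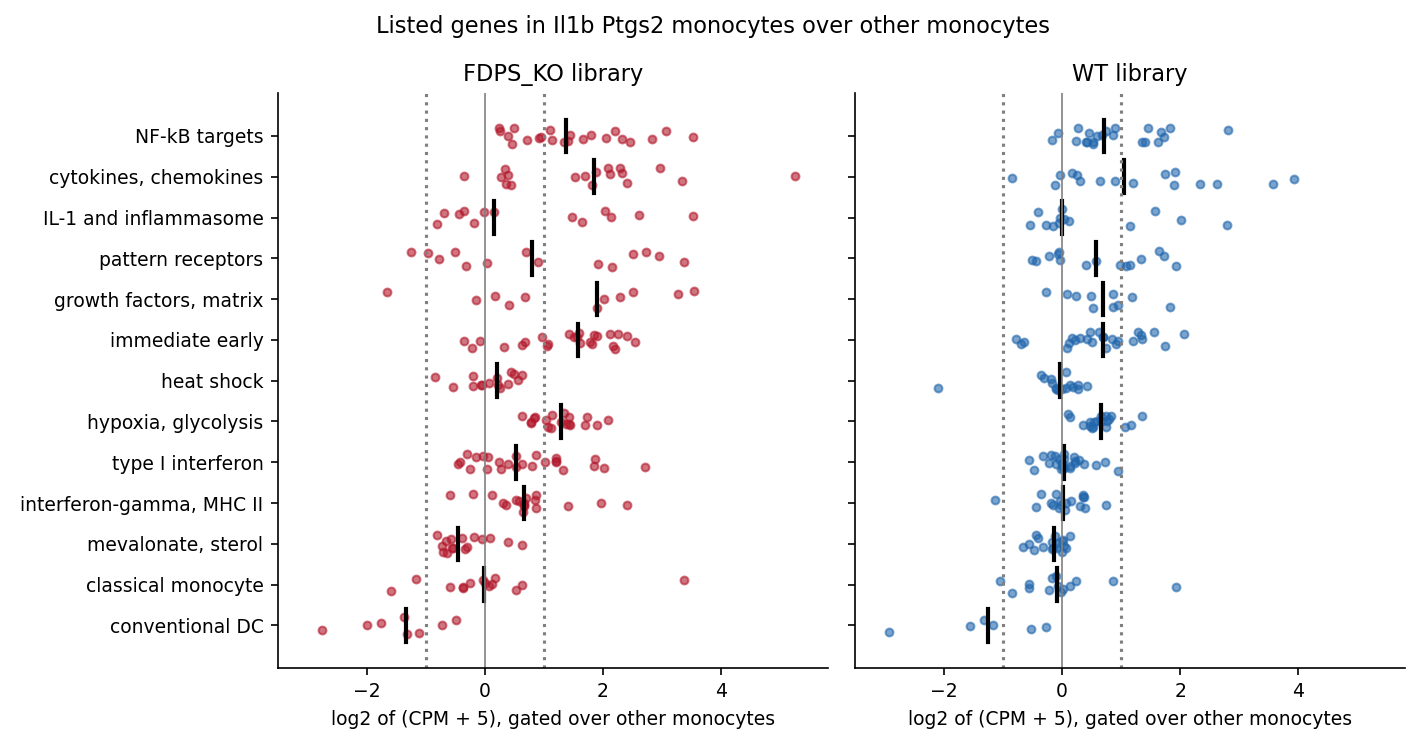
Log2 ratio of each measured gene, members over other monocytes (x axis), for 13 gene lists (y axis), KO left and WT right, with a black line at each median and dotted lines at 2-fold. Immediate early genes have medians of 1.57 in KO and 0.69 in WT, and heat shock genes 0.21 in KO and -0.03 in WT.

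Markers of conventional dendritic cells lay below the other monocytes in both libraries. Of the conventional dendritic cell markers, 6 of 8 were lower and 0 higher in KO members (median -1.34), and 4 of 6 lower and 0 higher in WT members (-1.25). Cd209a, a lectin of monocyte-derived dendritic cells, had 18.7 CPM in KO members against 89.2 CPM in KO other monocytes, a ratio of -1.99 that turned to 0.45 without neutrophil and dendritic marker cells. The summed conventional dendritic cell markers were lower in members, at 259 CPM in KO and 143 CPM in WT. The other monocytes had 647 CPM in KO and 335 CPM in WT. Mature dendritic cell markers did not follow: in WT 3 of 3 measured were higher in members (median 1.96), and in KO 0 were measured. They summed to 95.8 CPM in WT members against 15.7 CPM, and to 23.9 against 21.8 CPM in KO. For Fscn1, 97.1% of the UMIs of WT members came from 1 cell. Negr1, an adhesion molecule gene outside both lists, had 15.3 CPM (9 UMIs) in KO members against 153 CPM. In WT it had 1.48 against 29.7 CPM. It was higher in the class set apart by C1qa, C1qb and C1qc, at 516 CPM in KO and 194 CPM in WT. A rerun without neutrophil and dendritic marker cells kept 30 members and 325 other monocytes in KO, and 86 and 773 in WT. It removed both kinds of cell, so the part of dendritic cells alone in the ratios above was not tested. Among genes higher in both libraries, S100a9 ranked first by its smaller ratio, at 1152 CPM in KO and 450 CPM in WT members, but only 5.46 and 4.63 CPM in KO and WT members without the S100 cells. Hdc, which makes histamine, had 377 CPM in KO and 132 CPM in WT members, and 50.9 and 38.6 CPM in KO and WT without them. Slc7a11, the cystine transporter, had 176 CPM in KO members against 0.666 CPM and 147 against 28.1 CPM in WT, ratios of 4.99 and 2.20, with 56.3% of the KO UMIs in 1 cell. It had 144 CPM in KO and 84.9 CPM in WT members without the S100 cells, ratios of 4.71 and 1.44.

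Immediate early genes were higher in members of both libraries, with the higher median in KO. Of the measured ones, 17 of 24 were higher and 0 lower in KO members (median 1.57), and 7 of 25 higher and 0 lower in WT members (0.69). Without the S100 cells the counts were 17 higher and 1 lower in KO and 6 higher and 0 lower in WT. Fos had 2519 CPM in KO members (2392 to 2651) against 522 CPM and 595 CPM in WT members (554 to 637) against 242 CPM, ratios of 2.26 and 1.28. Zfp36, whose protein degrades cytokine transcripts, had 2429 CPM in KO members against 537 CPM and 711 against 238 CPM in WT, ratios of 2.17 and 1.56. Dusp1, a phosphatase that ends p38 signalling, had 1282 CPM in KO members against 273 CPM and 447 against 103 CPM in WT, ratios of 2.21 and 2.07. Socs3, an inhibitor of cytokine receptors, had 334 CPM in KO members against 53.5 CPM (2.54) and 209 against 145 CPM in WT (0.51). At 5000 UMIs a cell, a Fos UMI was present in 88.6% of KO and 61.1% of WT members, 52.8% and 46.5% of KO and WT other monocytes and 6.61% and 4.59% of KO and WT T cells. Unthinned, these shares were 94.9% and 77.9% of KO and WT members, 63.7% and 59.1% of KO and WT other monocytes and 13.3% and 14% of KO and WT T cells.

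Heat shock genes did not separate members from other monocytes. Of the measured ones, 0 of 15 were higher and 0 lower in KO members (median 0.21), and 0 of 16 higher and 1 lower in WT members (-0.03). Hspa1a had 1525 CPM in KO members against 1076 CPM (0.50) and 426 against 404 CPM in WT (0.07). Hspa1b had 1442 CPM in KO members against 1249 CPM (0.21) and 289 against 287 CPM in WT (0.01). These are near-identical copies that encode inducible HSP70, so the division of reads between them is uncertain. Hsp90aa1 had 1195 CPM in KO members against 767 CPM and 610 against 454 CPM in WT, ratios of 0.64 and 0.42.

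Per cell, the immediate early and heat shock lists together took a median of 2.43% of UMIs in KO members and 1.01% in WT members. The other monocytes had 0.895% in KO and 0.777% in WT, cells of the whole phagocyte gate 0.998% in KO and 0.759% in WT, and T cells 0.461% in KO and 0.707% in WT. The lowest KO member had 1.31% and the lowest WT member 0.223%. All 39 KO members lay above the median of their phagocyte gate, as did 77 of 95 WT members. Shares in the libraries' T cells stood the other way round, with KO below WT. Cells of the neutrophil gate had the highest medians of these groups, 3.73% in KO and 2.76% in WT. The Spp1 and Arg1 class had 2.25% in its 9 KO cells and 0.836% in WT. For immediate early genes alone the KO medians were 1.87% in that class and 1.66% in members. The class set apart by Retnla had 1.30% in KO and 1.10% in the 4 WT cells.

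The stress share had a higher median in bands of more Il1b. In KO its median was 1.92% in 6 cells with 5 to 9 Il1b UMIs, 2.31% in 8 cells with 10 to 29, 2.64% in 16 cells with 30 to 99 and 3.43% in 9 cells with at least 100. In WT it was 0.892% in 24 cells, 0.953% in 41, 1.24% in 23 and 2.03% in 7 cells of the same bands. Bands of under 20 cells are thin, which applies to all 4 in KO and the highest in WT. Fos followed in WT, with 241, 427, 623 and 1872 CPM from the lowest to the highest band, and in KO was 2205, 1486, 2162 and 4662 CPM. Zfp36 was 797, 2012, 2295 and 4478 CPM over the bands in KO and 227, 380, 872 and 2517 CPM in WT. Nlrp3 was 54.6, 178, 209 and 543 CPM in KO and 61.1, 92.8, 206 and 707 CPM in WT. Hspa1a did not follow in KO, at 1703, 1927, 1714 and 535 CPM, nor steadily in WT, at 312, 460, 352 and 721 CPM. Vegfa was lowest in the highest band in KO, at 720, 314, 388 and 61.3 CPM from the lowest band up.

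**Figure D4:**
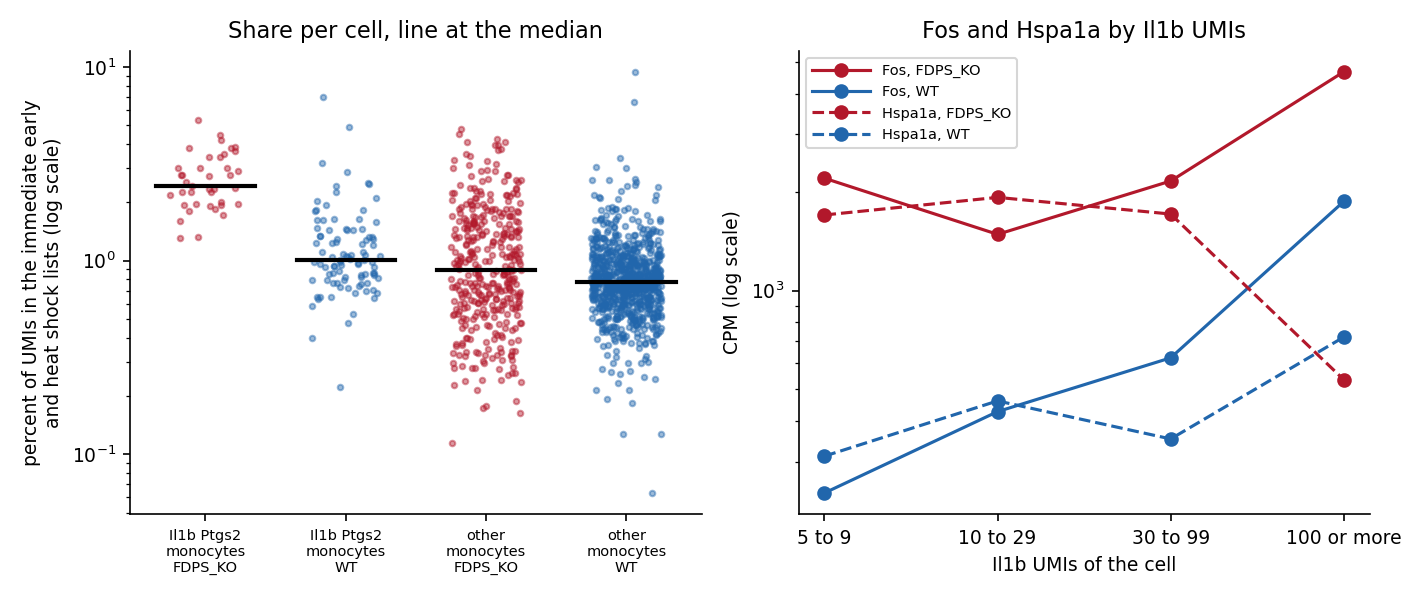
Left, percent of UMIs in the immediate early and heat shock lists per cell (y axis, logarithmic) for members of KO and WT and other monocytes of KO and WT, with a line at each median. Right, CPM of Fos (solid) and Hspa1a (dashed) over the 4 bands of Il1b UMIs, with Fos in the highest band at 4662 CPM in KO and 1872 CPM in WT.

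The 18 WT members whose stress share was under the median of the phagocyte gate were set against the 384 other WT monocytes under it. In them Cxcl2 kept a log2 ratio of 1.04 and Ccrl2 of 2.29, and the NF-κB list a median of 0.56. Fos had a ratio of 0.12, Dusp1 of -0.13 and the immediate early list a median of 0.16, but these genes also chose the cells. In these 18 cells the ratio of Cxcl2 was below the 3.92 of all WT members, and that of Ccrl2 below 2.81. The NF-κB list includes Ccrl2, whose level runs close to that of the gate gene Il1b across the phagocyte classes. Nothing is therefore read from these ratios. In KO no member was below that median, so the same comparison gave no value.

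Members of the KO library were then set against members of the WT library. Of 7567 measured genes, 343 were higher in KO (4.53%) and 367 lower (4.85%), with a median log2 ratio of -0.05. The gate does not use this contrast, but it admits cells by UMIs and the KO members held more Il1b, with a ratio of 0.78 for Il1b and 1.15 for Ptgs2. The 5 to 9 UMI band held 6 of 39 KO cells against 24 of 95 WT cells. Both libraries' members were above their own other monocytes for 87 of 7414 genes (1.17%) and below them for 38 (0.513%).

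Among the pathway lists, immediate early genes had the highest median. Conventional dendritic cell markers, a cell type list, had a higher one at 1.17, with 4 of 6 higher and 0 lower in KO members. Their median in the other monocytes was 1.13. Of 24 measured immediate early genes, 13 were higher and 1 lower in KO members (median 1.07), a share above the 4.53% of all genes. Fos had a ratio of 2.07 (1.90 to 2.25), Zfp36 of 1.77 (1.60 to 1.93) and Nr4a1, a nuclear receptor, of 1.80 (1.46 to 2.14). Klf4, a factor of monocyte maturation, had a ratio of 2.25 (1.45 to 3.04). Of 15 heat shock genes, 4 were higher and 0 lower (0.33). Hspa1b had a ratio of 2.30 (2.06 to 2.54), and Hsph1, an HSP70 partner, had 261 CPM in KO and 59.4 CPM in WT members (2.05), with 68.8% of the WT UMIs in 1 cell. Not every gene of the lists moved: Egr1 had a ratio of -0.28 (-0.83 to 0.26), and Egr2 was the 1 immediate early gene that was lower, at 13.6 CPM in KO and 41.6 CPM in WT members (-1.32).

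The other monocytes also had higher levels of some of these genes in KO. Of 8173 genes measured there, 265 were higher in KO (3.24%) and 223 lower (2.73%), with a median of 0.08. Of 24 immediate early genes 6 were higher and 1 lower (median 0.24), and 4 of 16 heat shock genes were higher and 1 lower (0.28). For Hspa1b the ratio was 2.30 in members and 2.10 in other monocytes, for Hsph1 2.05 in both, and for Fos 2.07 in members and 1.09 in other monocytes. In T cells the Hspa1b ratio was 0.64 and that of Fos 0.48. With only members of 10 to 99 Il1b UMIs, 24 KO and 64 WT cells, an alternative chosen after seeing the data, the immediate early median was 0.85 and the Fos ratio 1.94. A difference in digestion or handling between the libraries and a difference between the tumours cannot be told apart with 1 library each.

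Chemokines and cytokines went in both directions. Of 18 measured, 2 were higher and 5 lower in KO members (median -0.50). Cxcl9 stood at 2013 CPM in KO members (1900 to 2131) and 560 CPM in WT members (521 to 601), a ratio of 1.84, while in the other monocytes its ratio was -0.61. Cxcl2 had a ratio of 0.85 (0.66 to 1.04) in members. Cxcl1, another neutrophil attractant, had 22.2 CPM in KO members and no UMI in WT members, at least 9.95-fold higher against a floor of 3 UMIs in the WT members, with 69.2% of its UMIs in 1 cell. Ccl2 was much lower, with 138 CPM in KO members (110 to 172) and 1086 CPM in WT members (1031 to 1143), a ratio of -2.93. Ccl12, a monocyte attractant of the mouse, had 29 CPM in KO and 518 CPM in WT members (-3.94), although 1 WT cell held 46% of the WT UMIs. Ccl2 and Ccl12 were lower in the other monocytes as well, with ratios of -2.99 and -3.18.

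Nos2, the inducible nitric oxide synthase, had 40.9 CPM in KO and 227 CPM in WT members (-2.34), and 1 cell held 54.2% of its KO UMIs. Il1rn had a ratio of -1.07 (-1.45 to -0.70), whereas Nlrp3 at 0.41 (-0.01 to 0.82) had an interval that includes 0. The IL-1 and inflammasome list as a whole had 1 of 13 genes higher and 1 lower (-0.06), or 0 and 1 without the S100 cells (-0.28). The prostaglandin list had 1 of 10 higher and 1 lower (0.04), or 2 of 9 and 0 without them (0.18). The IL-1 list's higher gene was Il1rap, the co-receptor of IL-1, with 81% of its KO UMIs in 1 cell. Its ratio of 1.79 turned to -0.18 with cells thinned to 5000 UMIs and to -0.86 without the S100 cells. NF-κB genes had 5 of 22 higher and 1 lower (0.50), or 3 and 1 without the S100 cells. Nfkbiz was 1.32 (1.10 to 1.53) and Tnfaip3 1.06 (0.72 to 1.40). Growth and matrix genes had 2 of 12 higher and 3 lower (-0.30), with Vegfa at 1.36 and Thbs1 at 0.19 (-0.05 to 0.42).

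Hypoxia and glycolysis genes stood lower in KO than in WT, among members and among the other monocytes. Of 19 measured hypoxia and glycolysis genes, 0 were higher and 5 lower in members (median -0.74), where 4.85% of all genes were lower. In the other monocytes 0 were higher and 13 lower (-1.25), where 2.73% of all genes were lower. Pgk1, phosphoglycerate kinase, had 337 CPM in KO and 779 CPM in WT members (-1.19), and Aldoa, aldolase, had 573 CPM in KO and 1215 CPM in WT members (-1.08). Gapdh had 1430 CPM in KO and 2700 CPM in WT members, within 2-fold (-0.91). Fabp5, a fatty acid carrier, had 76.7 CPM in KO and 1019 CPM in WT members (-3.65). Cd36, a fatty acid receptor, had 5.11 CPM in KO and 102 CPM in WT members (-3.40). Among the other monocytes the ratio was -3.20 for Fabp5 but -0.51 for Cd36. Of 16 mevalonate and sterol genes, 0 were higher and 5 lower in KO members (-0.52), and they were Fdps, Idi1, Fdft1, Sqle and Cyp51. Fdps itself had 13 UMIs, or 22.2 CPM, in KO members (11.8 to 37.9) and 141 UMIs, or 105 CPM, in WT members (88.1 to 123), a ratio of -2.01. The other monocytes had 37.3 CPM in KO and 104 CPM in WT. The deletion is in tumour cells, so the level in host cells does not check the label, and the melanoma gene Dct was also lower, at 1.70 CPM in KO and 74.2 CPM in WT members (-3.56).

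Interferon gamma and MHC class II genes were higher in KO members for 3 of 18 and lower for 0 (median 0.55), among them Ciita, the master regulator of MHC class II, at 353 CPM in KO and 114 CPM in WT members (1.58). Type I interferon genes were higher for 0 of 25 and lower for 2 (-0.13), and lower for 5 without the S100 cells. Classical monocyte markers were higher for 0 of 14 and lower for 4 (-0.44), and pattern receptors higher for 1 of 15 and lower for 3 (-0.44), or 1 of 13 and 4 without the S100 cells (-0.61). Retnla, which the gate holds under 10 UMIs a cell, had 61.4 CPM in KO members and no UMI in WT members, and 76.3 CPM in KO and 0.107 CPM in WT other monocytes; as a gate gene it is no finding. Pltp, a phospholipid transfer protein, had 160 CPM in KO and 15.6 CPM in WT members (3.00). Lifr, the receptor for leukaemia inhibitory factor, had 80.1 CPM in KO and 8.17 CPM in WT members (2.69). Both were also higher in KO among the other monocytes, with ratios of 1.66 for Pltp and 2.21 for Lifr. Among the lowest, Upp1, uridine phosphorylase, had 25.6 CPM in KO and 189 CPM in WT members (-2.67). Dip2c had no UMI in KO members and 46.0 CPM in WT members, at least 9-fold lower in KO against a floor of 3 UMIs. Ratios in the other monocytes were -3.01 for Upp1 and -1.51 for Dip2c. Chil3, a chitinase-like protein of classical monocytes, had 30.7 CPM in KO and 122 CPM in WT members (-1.84).

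**Figure D5:**
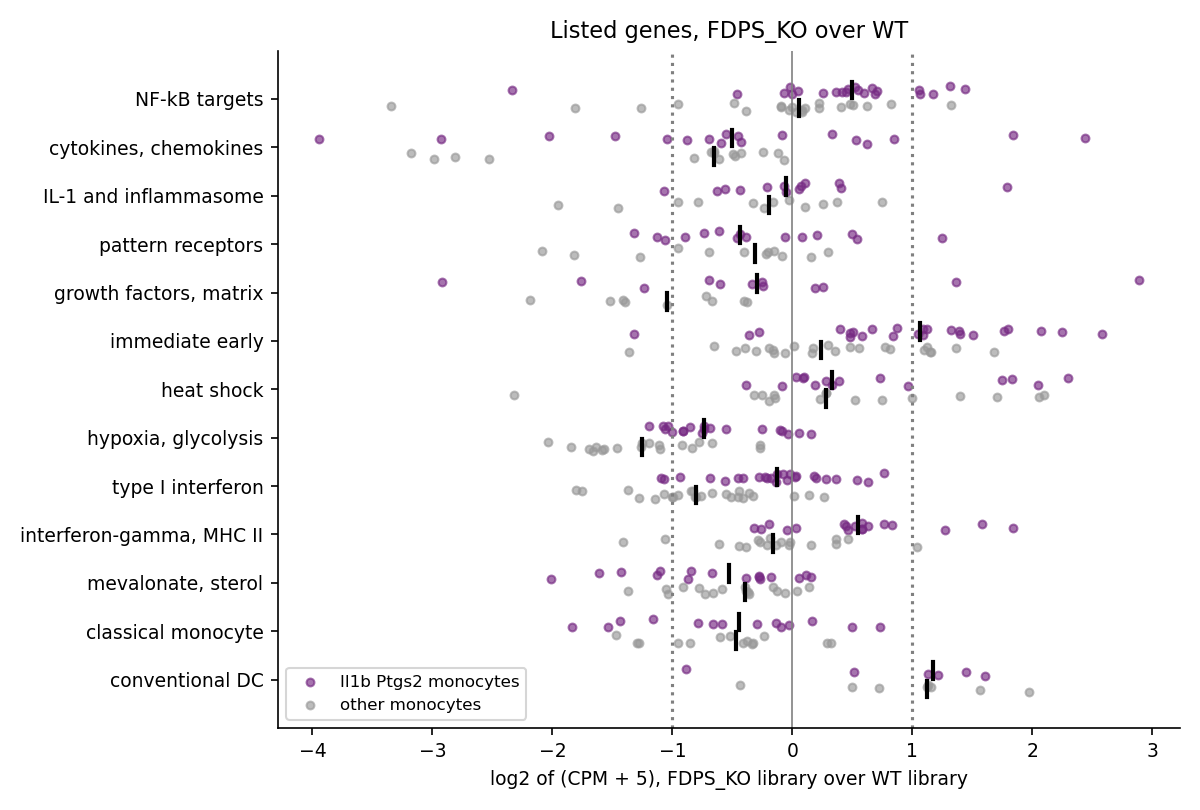
Log2 ratio of KO over WT per gene (x axis) for 13 gene lists (y axis), in members (purple) and in other monocytes (grey), with medians as lines. Immediate early genes have medians of 1.07 in members and 0.24 in other monocytes, and hypoxia and glycolysis genes -0.74 and -1.25.

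Across 7 phagocyte classes of both libraries, 14 points in all, the genes whose log2(CPM + 5) ran most like that of Il1b were Nfil3 (Pearson r 0.968), Pim1 (0.961), Btg1 (0.956), Ccrl2 (0.949) and Tnfaip3 (0.946). Ptgs2 had 0.864 and Cxcl2 0.709. The points include the members, chosen for Il1b, and classes of a library share its preparation and depth, so these values only describe the classes. Nfil3, a leucine zipper factor, had 184 CPM in KO and 128 CPM in WT members. It was higher, at 243 CPM, in the 9 cells of the KO Spp1 and Arg1 class.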

How the data were processed

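The deposited values were UMI counts per gene and barcode, as whole numbers. The file headers name Cell Ranger 7.2.0, and mm10 is the build per the submitters' processing notes. The annotation used for counting was not given in the sources. The libraries held 127186298 UMIs in 9130 barcodes for KO and 208936136 UMIs in 10882 barcodes for WT. Of these, 8697 and 9415 barcodes passed the gene and mitochondrial limits, with medians of 11148 and 14012 UMIs in KO and WT. Doublets were kept in. As an alternative the 635 KO and 820 WT cells with the highest Scrublet scores (scanpy 1.11.5) were removed, a number set from the barcode counts because the automatic threshold marked few cells.

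UMIs were summed over the cells of a class and scaled to CPM (Python 3.11.15, numpy 2.4.6, scipy 1.17.1, pandas 2.3.3, matplotlib 3.10.9), with a pseudocount of 5 CPM, a minimum mean of 10 CPM and a fold of 2. With 1 library a group there was no test. In simulated data with 200 genes changed 4-fold, 196 were recovered in KO over WT members. For members over other monocytes, 194 were recovered in KO and 200 in WT. Other genes called numbered 73 (1.00%), 37 (0.482%) and 0 in that order. The simulated counts held Poisson counting error only, with no spread between cells or libraries. They therefore do not give the error of the calls in the real data. Named genes were the measured members of the lists, the 15 highest and 15 lowest ratios shared by both libraries, the 12 highest and 12 lowest of KO over WT with separate intervals, and the 5 most like Il1b; a few stand for them in the text. The members and lists were chosen with earlier results of these data known. Clec7a and Mx1 were not matched by symbol, and a gene of the lists is not reported here. Values without cells of at least 10 S100a8 and S100a9 UMIs, and those within 10 to 99 Il1b UMIs, were chosen after seeing the data. The small cell numbers, 39 in KO, limit the precision.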

Additional observations from a re-analysis of the deposited data

How the results depend on the processing

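No paired analysis was possible because each group has 1 library and the labels carry no replicate number. The KO over WT share ratio of 0.444 stayed below 1 in 9 of 10 alternatives (gates, doublets, depth, marker cells) and was 1.358 as a share of the phagocyte gate. For KO over WT members, against 343 higher and 367 lower genes, the counts were 542 and 645 with no filter, 126 and 98 at 50 CPM or more, 1540 and 1385 with cells thinned to 5000 UMIs (12 KO and 35 WT members left), 536 and 603 within 10 to 99 Il1b UMIs, and 223 lower at a pseudocount of 10. For KO members over other monocytes they were 399 lower with median-ratio scaling, 1194 lower with no filter, and 888 higher and 1599 lower when thinned. For WT members over other monocytes they were 201 lower at a pseudocount of 1, 195 lower with no filter, 301 higher and 775 lower when thinned, and 187 higher and 744 lower in cells of low stress share, where KO had no member. Fewer cells and low levels are part of how the thinned, low-stress and unfiltered sets are built; for the rest the cause was not tested.

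Of 338 list medians, 321 stayed within the median counting interval of their genes, 16 moved further, and 1 that was beyond 1.5-fold changed sign: growth and matrix genes in KO members over other monocytes, at -0.118 when thinned. Of 1401 values of named genes that were past 2-fold in the comparison, 1368 kept their sign and 33 changed it, and in each the cause was not tested. For KO over WT these were Cxcl1 -2.15, Il1rap -0.18, Isg20 0.41 and Tnfaip6 -1.10 when thinned, Il1rap -0.67, S100a8 -0.25 and S100a9 -0.38 without neutrophil and dendritic marker cells, and Il1rap -0.86 and S100a8 -0.27 without the S100 cells. For KO members over other monocytes they were Ankrd33b -1.23, Cxcl1 -0.22, G0s2 -0.59 and Plekha5 0.047 when thinned, Cd209a 0.45, Cxcr2 -0.078, G0s2 -0.68, Il1rap -1.08 and S100a9 -0.017 without both kinds of marker cells, and Cxcr2 -0.063, G0s2 -0.57 and Il1rap -1.18 without the S100 cells. For WT they were Ankrd33b -0.88, Cxcr2 -0.065, Dusp1 -0.13, Il1a -0.88, S100a8 -1.45, S100a9 -0.76 and Stfa2l1 -0.13 at low stress share, S100a8 -1.16 when thinned, S100a8 -0.14 and Stfa2l1 -0.033 without both kinds of marker cells, and S100a8 -0.17 and Stfa2l1 -0.031 without the S100 cells.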
